A study of Lotus japonicus with 6 samples.

Results

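The C2H2 zinc finger genes were followed in leaves of Lotus japonicus, a model legume, in plants labelled as overexpressing the MYB transcription factor LjMyb14 and in wild type plants. The members are the non-control spots of a custom 1-colour Agilent array whose systematic name starts with LjZF-C2H2, and a name ending in _est was taken as the same gene. This gave 176 names, 139 genes, 311 probes and 622 spots, out of 2881 genes and 6358 probes on the array. Leaf total RNA came from 3 independent transgenic lines (lines 1, 2 and 3), in which a Lotus ubiquitin promoter drives LjMyb14, and from 3 wild type samples. All plants were of germplasm MG20 and were grown in vitro on MS medium at reduced strength. Each line and each wild type sample was hybridised to its own array, so a line stands as 1 sample and plants within a line were not measured separately. The sources used here do not give the age of the plants or the copy number of the transgene. In whole leaf, fewer cells of a type and less RNA per cell cannot be told apart.

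C2H2 zinc finger proteins hold a zinc ion between a pair of cysteines and a pair of histidines in each finger, and most that have been studied bind DNA. Plants have large families of them. In Arabidopsis thaliana, members of the ZAT group act in responses to cold, drought and oxidative stress, often as repressors, and SUPERMAN sets boundaries in the flower. LjMyb14 belongs to the R2R3 MYB factors, a class that includes regulators of the phenylpropanoid pathway. The array's names give only the family and a serial number, so no member could be tied to a named C2H2 gene of another plant or to a role, and the members are described by their measurements.

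The 3 lines were compared with wild type to see which of these regulators differ in plants labelled as constitutively overexpressing LjMyb14. Values are log2 of the spot intensity minus the array's 75th percentile, averaged over the 2 spots of a probe. A probe was tested where it was well above background on at least 3 of the 6 arrays. Wild type arrays 1 and 3 were closer to each other than repeated spots of 1 array would predict, with a variance ratio of 0.445, where the remaining same-group pairs had ratios of 2.76 to 11.6. Both together were taken as 1 sample, giving n = 3 for the lines and n = 2 for wild type, and a wild type mean averages arrays 1 and 3 first. The series' design text calls the wild type samples biological replicates, without saying what was separate between them, so p-values measure only the spread between these samples, which may be technical in part.

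The array facts that touch these results were few. Between 71.7% and 78.0% of all spots, and between 72.0% and 79.7% of the C2H2 spots, were well above background, and no spot was saturated. The 75th percentile intensity lay between 364 and 404. Spike-in probes stood at 0.81 above the 75th percentile on the array of line 2 and between -0.05 and 0.25 on the others, in log2. At the tested LjMYB14 probe the lines did not show the labelled overexpression, with -5.79, -4.62 and -6.03 in lines 1, 2 and 3, against -6.07, -5.20 and -5.89 on wild type arrays 1, 2 and 3. The brighter probe of another MYB gene, LjMYB76a, was 186-fold higher in the lines (log2 fold change 7.54, limma adjusted p = 0.000189). The sources used here do not say if either probe matches the transgene, so the lines are called by their label. No list of leaf-defining genes was fixed for this array, so the tissue label was not checked against markers. Of 86 MADS-box genes, a family with many floral regulators, 53 were tested, 1 rose and 1 fell, and their log2 fold changes ran from -2.17 to 2.59.

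Most C2H2 genes were expressed in leaf at a level the array could read. Of the 139 genes, 106 had a probe well above background on all 6 arrays, 15 had their best probe so on 3 to 5 arrays, 6 on 1 or 2, and 12 on none. Therefore 121 genes, with 250 of the 311 probes, were tested. That is 87.1% of the C2H2 genes, against 86.3% of all genes on the array. All 37 genes that also have a probe whose name ends in _est were tested, and 36 of them were well above background on all arrays. Of the 102 genes without such a probe, 84 were tested and 70 were well above background on all arrays. Since tests were made only on members that the array could read, the counts that follow leave out 18 genes.

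No C2H2 gene passed the test in the lines. By limma with Benjamini-Hochberg adjustment over all probes, 0 of 250 C2H2 probes and 0 of 121 genes were called at an adjusted p under 0.05, while 3.43% of all tested probes and 3.3% of all genes were called. The smallest adjusted p of a member was 0.0534, for LjZF-C2H2-34. At an unadjusted p under 0.05, with the brightest probe of each gene, 15 of 121 members (12.4%) were past the threshold, 6 higher and 9 lower, against 19.5% of all genes, 9.53% higher and 10% lower. Over probes this count was 27 of 250, 14 higher and 13 lower, against 19.9% of all probes. The 3 lines lay wholly above or wholly below the 3 wild type arrays in 38 members (31.4%), 16 above and 22 below, against 36.5% of all genes, 15.4% above and 21.1% below. These shares of members were below the background on each count, and the difference was not tested.

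The absence of calls is not evidence that the genes stayed level. The median C2H2 log2 fold change was -0.11, with the middle 50% of genes between -0.36 and 0.14, and for all genes it was -0.09, between -0.40 and 0.24. In 46 members the fold change was positive and in 75 negative. The log2 difference passed 1 in size in 9 members (7.44%), 4 positive and 5 negative, against 11.3% of all genes. The 95% confidence interval, which is not adjusted for the number of genes, had a median half-width of 0.60 in log2 at the 106 probes well above background on all arrays and of 1.03 at the other 15. For 60 of the 121 members the interval lay wholly between a 2-fold decrease and a 2-fold increase, and for 111 wholly between a 4-fold decrease and a 4-fold increase.

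**Figure D1:**
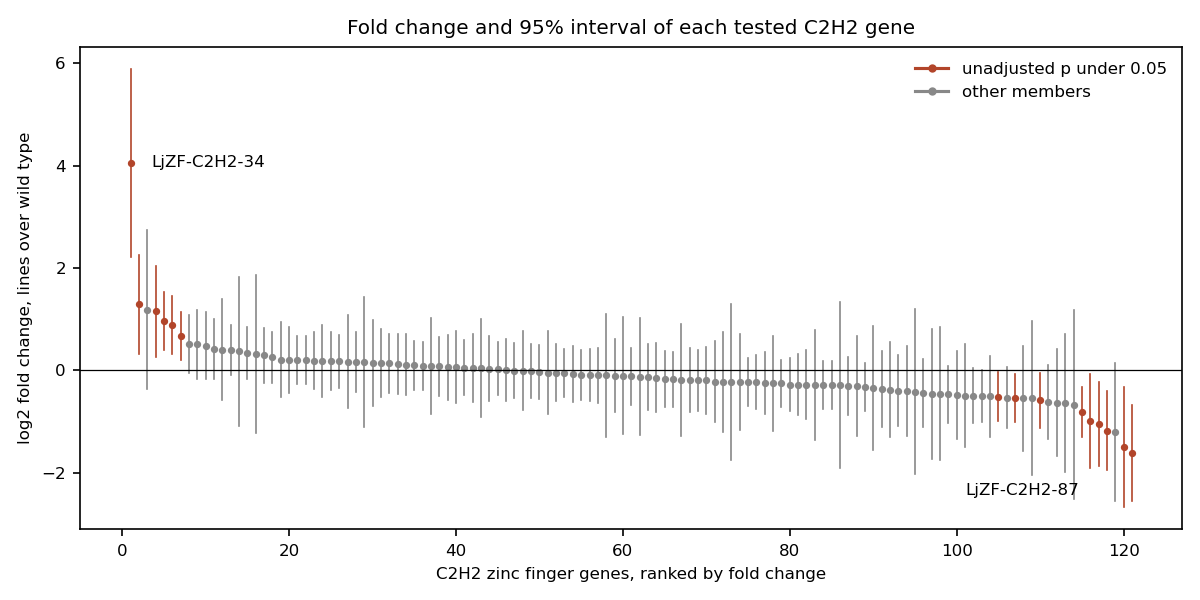
Log2 fold change (lines over wild type) of each of the 121 tested C2H2 genes at its brightest probe, ranked from highest to lowest, with its 95% confidence interval as a vertical line; members at an unadjusted p under 0.05 are in red. LjZF-C2H2-34 stands apart at 4.06, and the other members lie between -1.60 and 1.29.

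**Figure D2:**
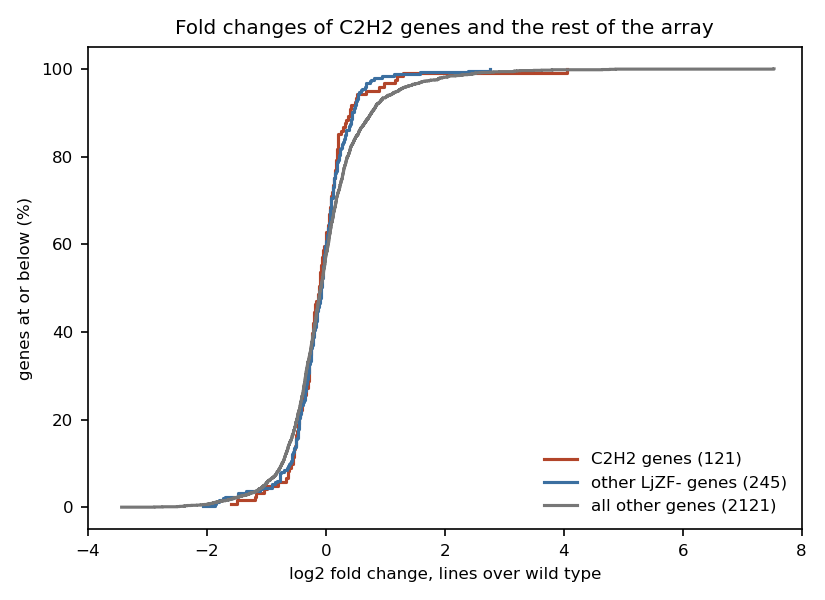
Cumulative share of genes (percent) against log2 fold change for 121 C2H2 genes, 245 other genes named LjZF- and the 2121 remaining genes of the array. The medians are -0.11 for C2H2 and -0.07 for the other LjZF- genes, and the curve of the remaining genes reaches from -3.43 to 7.54.

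LjZF-C2H2-34 had by far the largest difference of any member. At its brighter probe the processed intensity was 802, 226 and 852 in lines 1, 2 and 3, against 19.0, 49.6 and 18.2 on wild type arrays 1, 2 and 3. In log2 relative to the 75th percentile these were 0.99, -0.79 and 1.08 in the lines and -4.35, -2.87 and -4.42 in wild type. All lines stood above all wild type arrays, but line 2 was the lowest line and wild type array 2 the highest wild type array, each by more than 1 on the log2 scale. The means were 0.43 ± 1.05 in the lines (SD, n = 3) and -3.63 ± 1.07 in wild type (SD, n = 2). The log2 fold change was 4.06 (SE 0.73), or 16.6-fold, with a 95% interval of 2.22 to 5.89 and a limma adjusted p of 0.0534, just short of the threshold.

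The dimmer probe of LjZF-C2H2-34 gave the same order of samples. Its intensity was 334, 93.9 and 391 in lines 1, 2 and 3, against 5.51, 21.8 and 5.0 on the wild type arrays in the same order. This probe was well above background on all line arrays and on 2 wild type arrays, and its log2 fold change was 4.34 (limma adjusted p = 0.0666). Over 17 alternative settings the log2 fold change at the brighter probe ran from 2.62 to 4.81 and the adjusted p from 0.0116 to 0.319, and 6 of the 17 made it a call. Without line 2 the log2 fold change was 4.66 (limma adjusted p = 0.0177). With wild type array 2 left out it was 4.81 (limma adjusted p = 0.203), and with wild type arrays 1 and 3 left out it was 3.30 (limma adjusted p = 0.319).

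A group of members with smaller positive differences was more even over the lines. LjZF-C2H2-96 had intensities of 13850.2, 13301 and 10293 in lines 1, 2 and 3, against 6623, 5962 and 6667 on wild type arrays 1, 2 and 3. Its groups did not overlap, and all 3 of its probes ran the same way, with log2 fold changes of 0.89, 0.81 and 0.74 and limma adjusted p of 0.111, 0.0940 and 0.118. For LjZF-C2H2-85 the log2 values were 4.18, 4.29 and 4.08 in the lines, against 3.42, 3.56 and 3.53 in wild type. The lowest line lay above the highest wild type array by more than the range of either group, and the log2 fold changes at its probes were 0.67 and 0.52 (limma adjusted p = 0.143 and 0.213).

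LjZF-C2H2-131 had log2 values of 0.98, 0.72 and 0.71 in the lines, against 0.14, -0.36 and -0.08 in wild type, a log2 fold change of 0.97 (95% interval 0.41 to 1.54, limma adjusted p = 0.0929). The next probe of this gene gave 1.08 (adjusted p = 0.0716), again with no overlap of the groups. At its _est probe the groups did overlap, since line 2, at -4.43, lay below every wild type array. LjZF-C2H2-33 had -2.04, -1.20 and -2.26 in the lines, against -2.95, -2.96 and -3.10 in wild type. Here line 2 was the highest line, and the log2 fold changes at the probes of this gene were 1.16 and 1.11 (limma adjusted p = 0.165 and 0.140).

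LjZF-C2H2-41 lay close to background. At its brighter probe the log2 values were -5.35, -4.95 and -6.14 in the lines, against -6.30, -6.63 and -7.54 in wild type, with a log2 fold change of 1.29. Its dimmer probe gave 1.91 with a limma adjusted p of 0.0587. Each of these probes was well above background on 2 line arrays and 1 wild type array, and on the other 3 arrays it was not. For LjZF-C2H2-18 the log2 values were -0.18, -0.14 and -0.55 in the lines, against -0.78, -0.90 and -0.64 in wild type, a log2 fold change of 0.52 with a 95% interval of -0.05 to 1.08 that spans 0.

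On the negative side, LjZF-C2H2-108 had even values in each group. Its log2 values were -0.04, 0.17 and 0.08 in lines 1, 2 and 3, against 1.04, 0.79 and 0.88 on wild type arrays 1, 2 and 3. The groups did not overlap, and the log2 fold change was -0.81 (95% interval -1.29 to -0.32, limma adjusted p = 0.0997). At its other probe the groups overlapped and the log2 fold change was -0.30. LjZF-C2H2-87 had the most negative value, with -4.84, -4.0 and -5.16 in the lines and -3.02, -3.08 and -3.07 in wild type. The wild type arrays lay close together there while the lines spread over 1.16 on the log2 scale, and the log2 fold change was -1.60 (95% interval -2.54 to -0.67, limma adjusted p = 0.0940).

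LjZF-C2H2-43 showed 2.18, 2.34 and 2.02 in the lines, against 3.00, 3.79 and 2.86 in wild type, at its brightest probe. All lines were lower than all wild type arrays and the log2 fold change was -1.18 (limma adjusted p = 0.120), with wild type array 2 the highest. LjZF-C2H2-53 showed -3.62, -3.88 and -3.21 in the lines, against -2.13, -2.90 and -2.17 in wild type, a log2 fold change of -1.04 (adjusted p = 0.173). In this gene wild type array 2 was the lowest of its group and stood nearest to the lines.

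The other members among the 8 most negative were dim or uneven. LjZF-C2H2-121 had -5.94, -6.83 and -6.14 in the lines, where 1 array was well above background, against -5.47, -4.17 and -5.42 in wild type, where all were, a log2 fold change of -1.50 (limma adjusted p = 0.171). LjZF-C2H2-54 had -7.05, -6.92 and -6.06 in the lines and -5.57, -5.90 and -5.39 in wild type, with 1 line array and 2 wild type arrays well above background. For LjZF-C2H2-16 the log2 values were -6.57, -5.08 and -4.88 in the lines, against -3.98, -4.43 and -4.42 in wild type. Its log2 fold change of -1.19 went with line 1 as the lowest array, and the 95% interval, -2.54 to 0.15, spans 0. LjZF-C2H2-23 is given with the members that differed between lines.

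**Figure D3:**
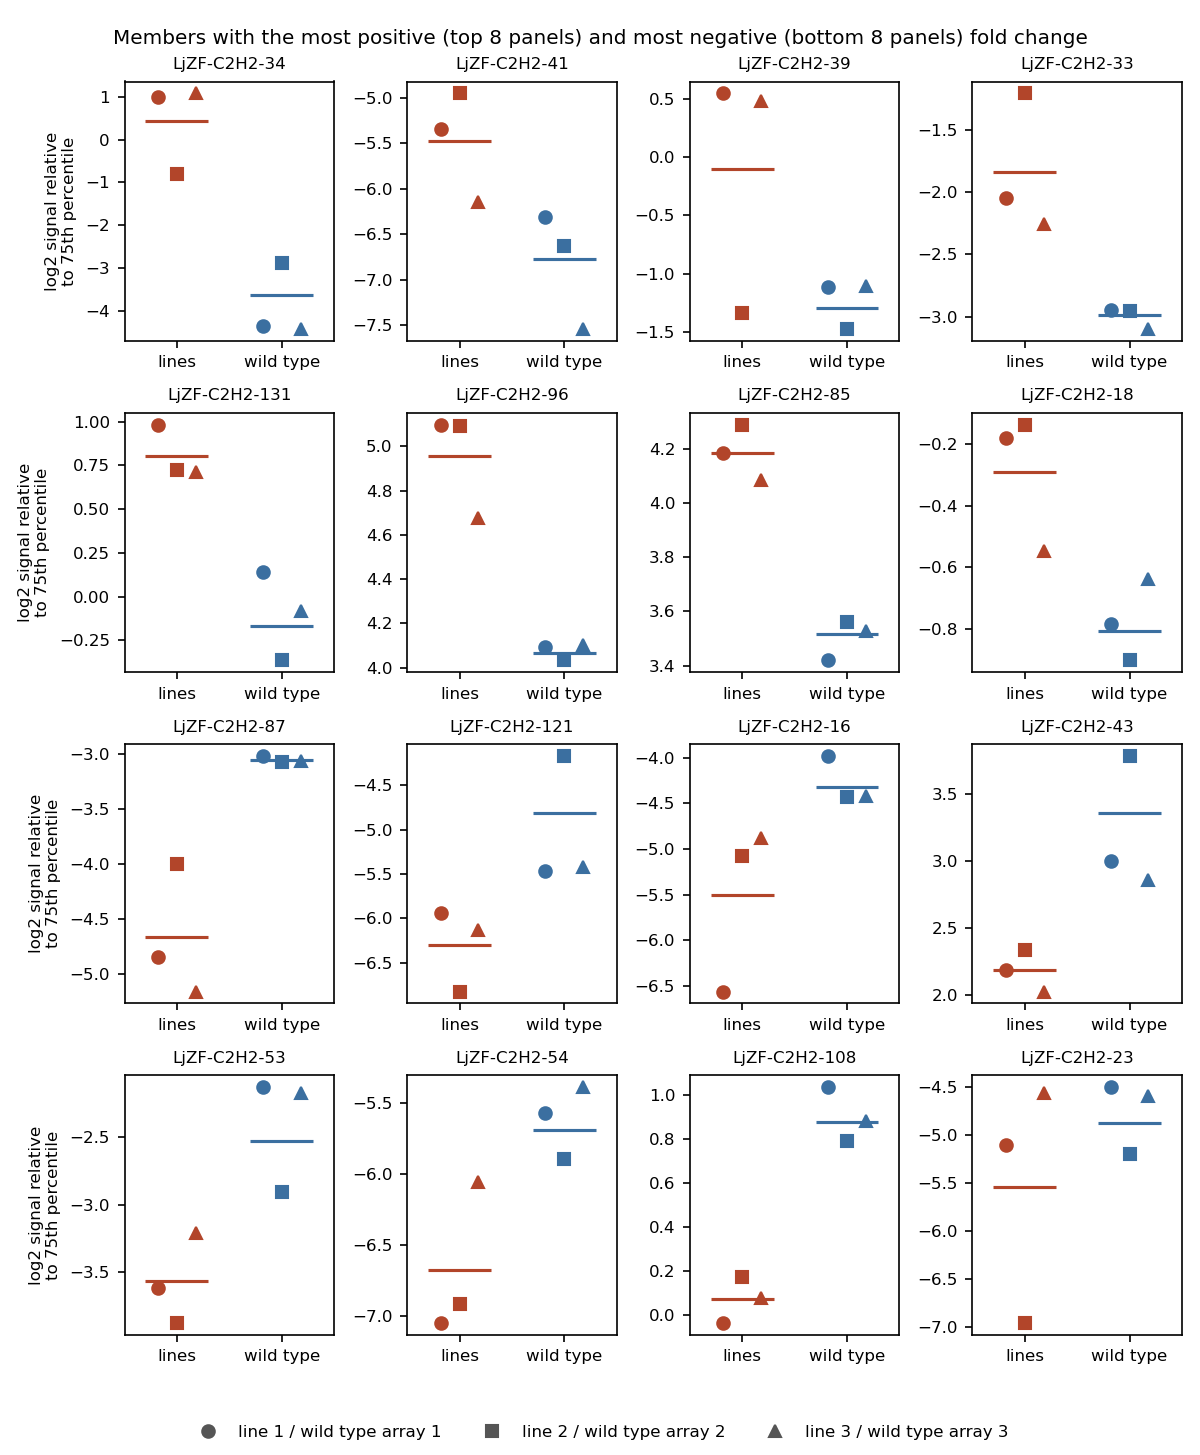
Log2 signal above or below each array's 75th percentile, lines in red at the left and wild type in blue at the right of each panel, for the 8 C2H2 genes with the most positive (upper 2 rows of panels) and the 8 with the most negative log2 fold change (lower 2 rows), at the brightest probe; horizontal bars are group means with wild type arrays 1 and 3 averaged first. The lines and wild type do not overlap in 14 of these 16 genes, with LjZF-C2H2-39 and LjZF-C2H2-23 as the exceptions. Choosing genes by fold change favours such separation, which held for 31.4% of all tested members and 36.5% of all genes.

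Counting every array as a sample of its own gave calls among the members. With n = 3 for each group, limma called 8 of 121 C2H2 genes (6.61%), against 12.3% of all genes, and 16 of 250 C2H2 probes (6.4%), against 12.7% of all probes. Higher in the lines were LjZF-C2H2-34, LjZF-C2H2-33, LjZF-C2H2-131, LjZF-C2H2-96 and LjZF-C2H2-85, with adjusted p of 0.0116, 0.0483, 0.0279, 0.0228 and 0.0270. Lower were LjZF-C2H2-87, LjZF-C2H2-53 and LjZF-C2H2-108, with adjusted p of 0.0222, 0.0455 and 0.0174. This fit takes wild type arrays 1 and 3 as separate samples although they differed by less than the spot noise.

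The size of several differences depended on the processing. With normexp background correction and an offset of 50 the log2 fold change was 0.057 for LjZF-C2H2-41, 0.59 for LjZF-C2H2-33, -0.55 for LjZF-C2H2-87, -0.28 for LjZF-C2H2-121, -0.26 for LjZF-C2H2-16, -0.54 for LjZF-C2H2-53 and -0.12 for LjZF-C2H2-54. With quantile normalization it was 0.46 for LjZF-C2H2-96 and 0.39 for LjZF-C2H2-85. Over the mean of a gene's probes it was -0.079 for LjZF-C2H2-43, -0.76 for LjZF-C2H2-87 and -0.46 for LjZF-C2H2-53. With the slide row as a block it was -2.25 for LjZF-C2H2-16 and 1.84 for LjZF-C2H2-39. Lines 2 and 3 were alone in their slide row, so these values set line 1 alone against wild type.

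Probes of a gene mostly gave like values. Of the 121 tested members, 94 had at least 2 tested probes, and in 66 of these all probes had the same sign. The median gap between the highest and lowest log2 fold change of a gene's probes was 0.15. Across these 94 genes the log2 fold changes at the brightest and the next brightest probe had a Pearson correlation of 0.85 and a Spearman correlation of 0.77, and without LjZF-C2H2-34 the Pearson correlation over the other 93 was 0.71. This describes agreement across genes on the same arrays, and genes are not replicates. In 12 genes all tested probes had the same sign and a log2 fold change of at least 0.5 in size.

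In 3 members the probes were more than 1 apart on the log2 scale. LjZF-C2H2-43 gave -1.18 at its brightest probe, but 0.54 and 0.40 at the others. At the first of these the log2 values were -1.09, -1.30 and -1.54 in the lines, all above the -1.91, -1.83 and -1.84 of wild type, the opposite order to the brightest probe. LjZF-C2H2-87 gave -1.60 at its brightest probe and 0.08 at the other, where the groups overlapped. LjZF-C2H2-53 gave -1.04, -0.55 and 0.22. For these genes the sign of the difference therefore depends on the probe, and the files used here do not say which part of the transcript each probe reads.

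**Figure D4:**
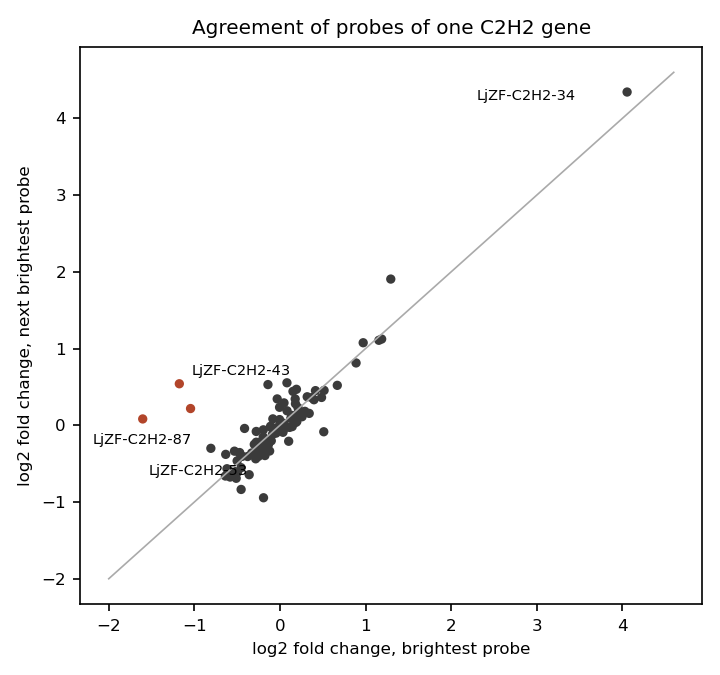
Log2 fold change (lines over wild type) at the next brightest probe against that at the brightest probe for the 94 C2H2 genes with at least 2 tested probes; the grey line marks equal values. Most genes lie near the line, and LjZF-C2H2-43, LjZF-C2H2-53 and LjZF-C2H2-87, in red, have probes more than 1 apart.

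The spread between lines was much the same in the members as in all genes. The range over the 3 lines had a median of 0.63 on the log2 scale for the members and 0.62 for all genes, while the range over the 3 wild type arrays had a median of 0.29 for the members and 0.30 for all genes. The wild type range spans only 2 samples, since arrays 1 and 3 were taken as 1. Between pairs of lines the median absolute difference of the members was 0.30 for lines 1 and 3, 0.34 for lines 1 and 2 and 0.47 for lines 2 and 3. Between pairs of wild type arrays it was 0.22 for arrays 1 and 2, 0.21 for arrays 2 and 3 and 0.08 for arrays 1 and 3. Line 2 was the line farthest from the middle one in 60 of 121 members, line 3 in 43 and line 1 in 18, against 54.8%, 28.3% and 16.8% of all genes. In 32 members (26.4%), against 28.0% of all genes, the lines ranged over more than 1, and among these line 2 was the lowest in 18 and line 3 the highest in 22.

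Of the 5 members with the widest range between lines, line 2 was the lowest in 4. LjZF-C2H2-59 had -1.83, -2.84 and -0.67 in lines 1, 2 and 3, against -1.06, -1.67 and -1.05 on the wild type arrays. LjZF-C2H2-47 had -2.89, -3.97 and -1.91 in the lines, against -2.19, -2.97 and -2.67 in wild type. In both genes line 3 stood above and line 2 below every wild type array, and line 1 lay between them. The log2 fold changes over all lines were -0.41 and -0.22. LjZF-C2H2-23 had -5.10, -6.96 and -4.56 in the lines and -4.50, -5.20 and -4.59 in wild type, and LjZF-C2H2-127 had -6.16, -7.69 and -5.69 in the lines and -5.72, -5.98 and -6.19 in wild type, in each case with line 2 below all other arrays. LjZF-C2H2-67 went the other way, at -6.05, -5.10 and -7.35 in the lines, against -6.06, -5.75 and -5.94 in wild type, with line 2 the highest of all arrays and line 3 the lowest. LjZF-C2H2-127 and LjZF-C2H2-67 were well above background on 2 line arrays and 2 wild type arrays, and their lowest values, at intensities of 1.89 and 2.46, were dim ones with no firm order.

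LjZF-C2H2-39 set lines 1 and 3 apart from line 2. Its intensity was 590.0, 155 and 561 in lines 1, 2 and 3, against 179.5, 131 and 179.9 on the wild type arrays. Lines 1 and 3 were above all wild type arrays and line 2 lay among them, and at the other 2 probes line 2 lay below them. The log2 fold changes at these probes were 1.19, 1.12 and 0.86, with limma adjusted p of 0.365, 0.438 and 0.642. Without line 2 the brightest probe was called, with a log2 fold change of 1.80 (limma adjusted p = 0.0188). This was the only 1 of 17 settings that called it, and it leaves out the line whose value differed. Among the settings that leave out arrays, leaving out line 2 also gave the most calls over the whole array.

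LjZF-C2H2-113, which was not tested, had a like order of lines. Its probes were well above background in lines 1 and 3 and on no wild type array. At the brighter probe the intensity was 42.7, 1.08 and 28.7 in lines 1, 2 and 3, against 1.27, 0.968 and 1.72 on the wild type arrays, so line 2 could not be told from wild type. A floor on each wild type array was the higher of the probe's own signal and the lowest signal well above background. Set against it, the mean of the lines was 3.88-fold higher, and at the other probe 1.63-fold higher. Such a bound sets means against each other and takes no account of how the samples of a group vary. It is not a firm bound, since the mean of the lines includes line 2 at a signal not well above background. In a fit without the filter on dim probes the log2 fold changes were 3.11 and 1.46, with limma adjusted p of 0.410 and 0.383.

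For the remaining C2H2 probes that were well above background in only 1 group the bounds were small. Set against the same floor, the mean of the lines was 1.51-fold higher for LjZF-C2H2-41_est, resting on 1 line array. For 1 probe of LjZF-C2H2-57 it was 1.36-fold higher, resting on 2 line arrays. At that probe wild type array 2, at -6.58 in log2, lay above line 2, at -6.91. Without the filter on dim probes its log2 fold change was 0.79 (limma adjusted p = 0.492). The other probe of LjZF-C2H2-57 went the opposite way, at -0.48 (limma adjusted p = 0.790). For LjZF-C2H2-28, LjZF-C2H2-68 and LjZF-C2H2-58 the mean of wild type was 1.14-fold, 1.12-fold and 1.05-fold above a like floor on the line arrays. Each rests on 1 wild type array, and the groups overlapped at each. None of these bounds is firm, since each mean includes signals not well above background.

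**Figure D5:**
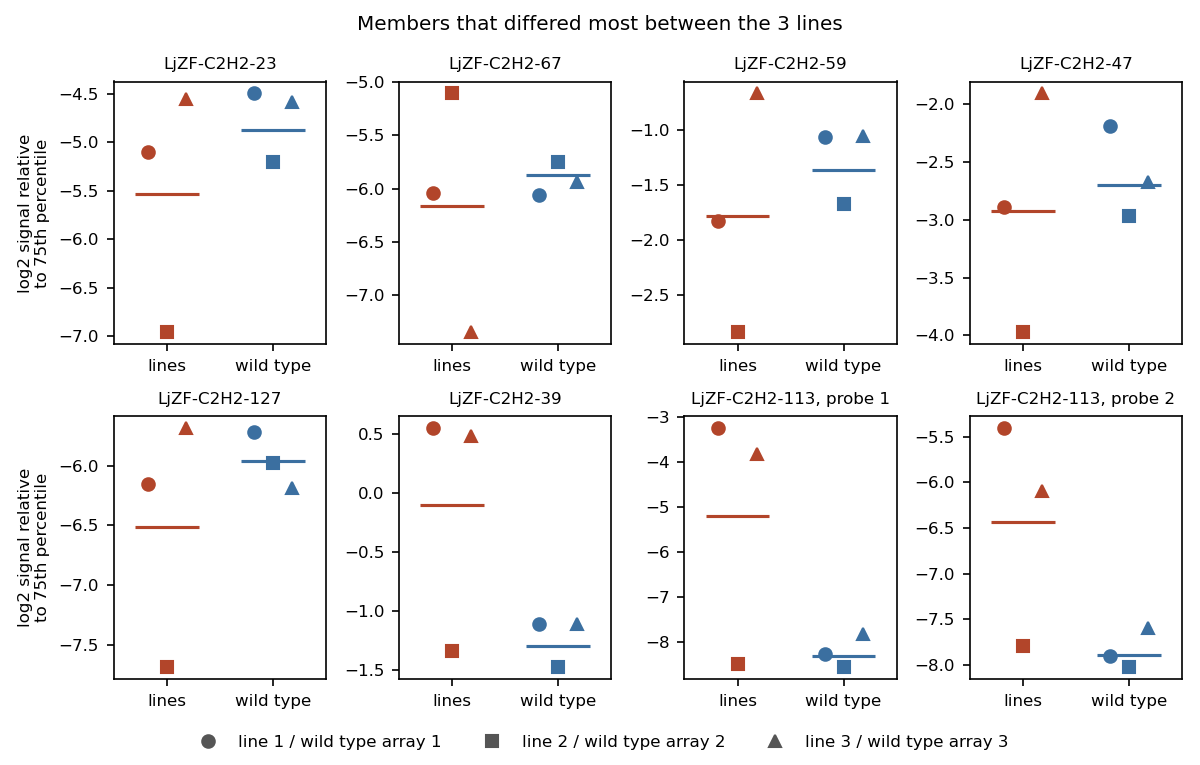
Log2 signal above or below each array's 75th percentile, lines in red at the left and wild type in blue at the right of each panel, for the 5 C2H2 genes with the widest range between lines, for LjZF-C2H2-39 and for the 2 probes of LjZF-C2H2-113; horizontal bars are group means with wild type arrays 1 and 3 averaged first. Line 2 (square) lies apart from lines 1 and 3 in LjZF-C2H2-23, LjZF-C2H2-127, LjZF-C2H2-39 and LjZF-C2H2-113.

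Signal level and the kind of probe moved with the position of line 2. Among the 250 tested C2H2 probes, the 125 below the median signal had a median of -0.32 for line 2 minus the mean of lines 1 and 3, and the others had 0.11. In the 35 genes with an _est probe and another probe tested, this difference had a median of -0.48 at the _est probes and 0.10 at the others, and it was lower at the _est probe in 28 genes. The _est probe was the dimmer in 27 of the 35. The part of signal level, of probe design or of the array of line 2 in the differences between lines was not tested.

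At the other end, 5 members well above background on all arrays varied least over the 5 samples. LjZF-C2H2-71 had log2 values of 0.49, 0.63 and 0.48 in the lines and 0.64, 0.57 and 0.59 in wild type, with an SD of 0.0703 over the samples. LjZF-C2H2-97, LjZF-C2H2-120, LjZF-C2H2-3 and LjZF-C2H2-135 had SDs of 0.0834, 0.101, 0.107 and 0.122. The 95% intervals of their log2 fold changes all lay within -0.59 and 0.58, which choosing genes by a small SD over both groups favours. These SDs depended on the scaling and the probe. With median scaling they were 0.220 for LjZF-C2H2-71, 0.180 for LjZF-C2H2-97, 0.184 for LjZF-C2H2-120, 0.246 for LjZF-C2H2-3 and 0.273 for LjZF-C2H2-135. For LjZF-C2H2-120 the SD was also 0.205 with quantile normalization and 0.265 over the mean of its probes, and for LjZF-C2H2-3 it was 0.234 over the mean of its probes. A steady brightest probe did not mean that each probe of the gene was steady. The _est probe of LjZF-C2H2-71 ranged over 1.35 between lines.

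Calls in the other zinc finger families can be read against 3.3% of all genes called and 19.5% at an unadjusted p under 0.05. Of 190 tested genes of the C3HC4 family, a RING-type class that includes many ubiquitin ligases, 3 rose and none fell, and 30 (15.8%) were at an unadjusted p under 0.05. The called genes were LjZF-C3HC4-83, LjZF-C3HC4-86 and LjZF-C3HC4-126, with limma adjusted p of 0.00828, 0.0470 and 0.0499, and they are named after their values were seen. No call was made among 22 DOF, 17 GATA, 6 YABBY, 8 ZF-HD or 2 C3HC genes, of which 2, 2, 1, 2 and 0 were at an unadjusted p under 0.05. The median log2 fold change was -0.06 for C3HC4 genes and -0.07 for all 245 other LjZF- genes together, against -0.09 for all genes of the array. The range between lines had a median of 0.63 for C2H2 and 0.47 for C3HC4 genes, which was not tested. Among 61 WRKY genes, transcription factors best known from defence, 1 rose and 2 fell, and 10 (16.4%) were at an unadjusted p under 0.05.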

How the data were processed

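Leaf RNA of 3 lines and 3 wild type samples was labelled with Cy3 and hybridised to 6 arrays. The deposited intensity of each spot was made by the authors with Agilent Feature Extraction 10.7.3.1, per the submitters' processing notes, with local background and spatial trend removed on each array, per the file headers. The deposited value table held the same intensity in every cell, so it stands for leaving out scaling between arrays. From these, each intensity was put on the log2 scale and the 75th percentile of the array's 14642 non-control spots was subtracted, flagged outlier spots (32 to 78 per array, none of a C2H2 probe) were left out, and the 2 spots of each C2H2 probe were averaged. Probes well above background in at least 0.5 of their spots on at least 3 arrays were tested (5039 probes, 2487 genes) with limma 3.58.1 in R 4.3.3, with 3 residual and 2.54 prior degrees of freedom. The number of arrays limits the precision. Calls were made at a Benjamini-Hochberg adjusted p under 0.05. Where 1 probe per gene was needed, the one with the highest mean was used.

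The design averages wild type arrays 1 and 3, which an earlier treatment of these data had shown to be alike. Members, lists and tests were chosen with earlier results of these data known. Named are the 8 most positive and 8 most negative members, the 5 with the smallest SD, the 5 with the widest range between lines, members whose probes differ by over 1 on the log2 scale, and members with a bound above 1. All arrays lay on 1 slide and carried 1 scan time, per the file headers, which leaves the slide row as the only known batch. Its effect cannot be told apart from that of lines 2 and 3, the only arrays of row 1. The sources used here name no genome build. Probe sequences, probe positions and descriptions of the members were not used here. Gene names are the array's own.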

Additional observations from a re-analysis of the deposited data

How the results depend on the processing

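The count of C2H2 genes called was 0 as reported. With the slide row as a block only line 1 is set against wild type, so that fit is no check of this count. The count was also 0 without scaling between arrays, without the filter on dim probes and with the mean of a gene's probes. It was 8 with all 6 arrays counted singly, 4 with normexp background correction (chosen after seeing the data, since the files hold the median spot signal), and 1 each with quantile normalization, with median scaling and with only probes well above background on all arrays. For C2H2 probes these counts were 16, 9, 1, 2 and 1, and for all probes of the array 639, 249, 196, 185 and 171. Leaving out arrays gave 0 to 3 genes and 0 to 7 probes, and both upper values came without line 2. The genes called at their brightest probe were then LjZF-C2H2-34, LjZF-C2H2-39 and LjZF-C2H2-87, and the probes also included LjZF-C2H2-6_est.

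Over the whole array 173 probes were called, against 639 with 6 arrays singly, 2 with the slide row as a block (row 2 held every wild type array and line 1, and row 1 held lines 2 and 3), 110 without the filter, and 4 to 439 when arrays were left out. The lowest came without wild type arrays 1 and 3, and the highest without line 2. The fit with the slide row as a block sets line 1 alone against wild type. Leaving out wild type arrays 1 and 3, or array 2, leaves 1 wild type sample, which is then assumed to vary like the lines. Without wild type array 2, line 1 and line 3 the counts were 8, 14 and 77. The median of the C2H2 genes was -0.023 without scaling and -0.025 with median scaling, where that of all genes was -0.0016 and -0.0038, and -0.18 to -0.028 when arrays were left out. The median range between lines was 0.281 with normexp, 0.540 with quantile normalization, 0.731 with median scaling, 0.488 with probes well above background on all arrays, and 0.304 to 0.628 when arrays were left out, which leaves fewer lines to range over. The cause of the other changes was not tested.

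Of 20 named members with a fold change, 15 kept their direction in all of the 17 settings that gave them a value, though not their size. The other 5 reversed when arrays were left out, with ranges of -1.16 to 0.045 for LjZF-C2H2-23, -0.82 to 0.30 for LjZF-C2H2-67, -0.97 to 0.12 for LjZF-C2H2-59, -0.73 to 0.30 for LjZF-C2H2-47 and -0.96 to 0.043 for LjZF-C2H2-127. In each the change of sign came without line 2, except LjZF-C2H2-67, where it came without line 3. LjZF-C2H2-47 also reversed without wild type arrays 1 and 3 (0.044). Most of the 20 were chosen for a large fold change, which favours a kept direction. Except for the mean of a gene's probes, each setting read the same probe. Among the 15, LjZF-C2H2-43, LjZF-C2H2-53 and LjZF-C2H2-87 each had another probe of opposite sign.

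The labels number the lines and the wild type samples from 1 to 3 and state no pairing. Deviations of same-numbered arrays had correlations of 0.01, 0.17 and 0.07. With wild type arrays 1 and 3 nearly alike, these values cannot decide if same-numbered samples shared a step. With a replicate block on 6 arrays, 4 of 121 C2H2 genes and 7 of 250 C2H2 probes were called, against 373 of all 5039 tested probes. Without the block these counts were 8, 16 and 639.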
